A study of Mus musculus with 24 samples.

Results

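The potassium channel subunits described here are the 91 genes of the mouse whose symbol begins with Kcn, followed by further letters and a final number, with Kcnj2 left out, of 56941 genes listed. They encode the pore-forming and accessory subunits of the voltage-gated, calcium-activated, inwardly rectifying, and leak potassium channels. The libraries come from C2C12 muscle, a mouse myoblast line that fuses into contractile myotubes, carrying the ChR2::tdTomato genotype, in which blue light opens a channelrhodopsin and makes the cell contract. All groups are of this single line and were differentiated on fibrin in DMEM with IGF-1 (50 ng/ml) and inactivated horse serum (10%). The groups were unstimulated (control) or were exercised with light daily for 60 min at 1, 4, or 10 Hz, with 6 libraries per group. Spontaneous twitching was present in all groups, controls included, and the control muscle may therefore have contracted without light. The comparisons ask how much of each channel transcript is present at each stimulation frequency.

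Potassium channels carry the outward current that ends the action potential and set the resting potential of the muscle fiber. Delayed rectifiers of the voltage-gated family repolarize the membrane, inward rectifiers and leak channels hold it near the potassium equilibrium, calcium-activated channels couple it to the calcium transient, and the ATP-sensitive channel couples it to the energy state. In proliferating and fusing myoblasts and in other dividing cells, the intermediate-conductance calcium-activated channel and the ether-à-go-go channel are known from work on proliferation and on the onset of fusion.

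The estimated counts of a library summed to between 8052369 and 18159144. Every one of 10 myotube markers was present in all libraries, and 0 of them changed at any frequency against the control, with a summed level of 10790 to 13920 TPM (transcripts per unit of gene length, scaled to 1 fixed total in each library) in the controls, 8002 to 11580 at 1 Hz, 8215 to 12140 at 4 Hz, and 10420 to 11310 at 10 Hz. The 5 markers of myoblasts and early differentiation moved more. Their sum was 763 to 999.8 TPM in the controls, 280.0 to 400.9 at 1 Hz, 211 to 321 at 4 Hz, and 731 to 860.2 at 10 Hz, and 4 of the 5 (Myod1, Myog, Pax7, and Cdh15) were lower and 1 (Myf5) higher at both 1 and 4 Hz. Their part in the results below was not tested. Of the markers of other cell types, several defining ones had no count in most libraries, among them Rbfox3 (none in 21 of 24 libraries), Snap25 (22), Elavl4 (23), Ptprc (22), Nppa (22), and Myl7 (24). Other markers on the same lists were present in every library, with the neuron marker Stmn2 at 42.8 to 73.7 TPM, the cardiac myosin Myh6 at 37.0 to 79.1 TPM, the leukocyte marker Cd68 at 55.1 to 102 TPM, and the smooth muscle marker Smtn at 72.4 to 162 TPM. At 4 Hz 1 marker of each of the neuron, cardiomyocyte, and smooth muscle lists was higher than in the controls, and 0 were at 1 or 10 Hz. The part of these markers in the results was not tested. Ribosomal protein genes took over 7% of the counts in 5 libraries (1 Hz replicates 4 and 6 and 4 Hz replicates 1, 3, and 4), and member calls that were lost without them are named with the member. Mitochondrial genes took 8.90% of the counts in 4 Hz replicate 3, 4.87% in 1 Hz replicate 6, 4.34% in 4 Hz replicate 6, and 3.97% in 1 Hz replicate 4, against 1.37% to 2.72% in the controls. Of these 4 libraries, 4 Hz replicate 6 is not among the 5 left out together and was left out only singly. In 4 Hz replicate 1, which is among those 5, the mitochondrial share was 0.545%, below all controls. The part of the mitochondrial share in the results was not tested.

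Of the 91 genes, 21 had no count in any library, 24 had 1 to 10 counts over all 24 libraries, and 22 had more but did not pass the filter on low counts. The remaining 24 were tested among 13315 genes. A mean of 1 TPM or more in the controls was reached by 16 genes and of 5 TPM or more by 8. The genes listed at 0 throughout include Kcnk3 and Kcnk9, acid-sensitive leak channels of neurons and adrenal cells, and Kcnj5 and Kcnj6, G protein-gated rectifiers of heart and brain. A count of 0 in all 24 libraries bounds only what their depth can show and is not proof of absence. In a fit without the filter, 0 of the 46 untested genes with a count changed in any of the 6 comparisons by edgeR's test. In that fit 3351 of 27811 genes changed at 4 Hz against the control. The smallest adjusted p among the 46 was 0.052, in the same comparison. Their few counts limit what could be called. At an unadjusted p under 0.05, the untested genes numbered 2, 6, and 1 at 1, 4, and 10 Hz against the control. These were 4.35%, 13.0%, and 2.17% of the 46, beside 24.7%, 29.8%, and 5.4% of the 27811 genes in that fit.

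By length-scaled level, the calcium-activated channel Kcnn4 led the controls with 48.4 ± 6.0 TPM (SD, n = 6). Among the other members named here, the small-conductance calcium-activated channel Kcnn3 followed with 14.4 ± 1.45 TPM. The leak channels Kcnk13 (8.39 ± 0.935 TPM) and Kcnk5 (8.25 ± 1.10 TPM) and the silent subunit Kcnf1 (8.06 ± 1.17 TPM) could not be ordered beyond their spread. Below them lay Kcnn1 with 5.54 ± 0.874 TPM, then Kcnk2 (3.50 ± 0.506 TPM) and Kcnab2 (3.44 ± 0.459 TPM), which overlapped, and Kcnj12 (2.25 ± 0.321 TPM) and Kcnh2 (1.93 ± 0.614 TPM), which also overlapped. Thus the calcium-activated class held the largest summed level, and most of that sum was 1 gene.

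**Figure D1:**
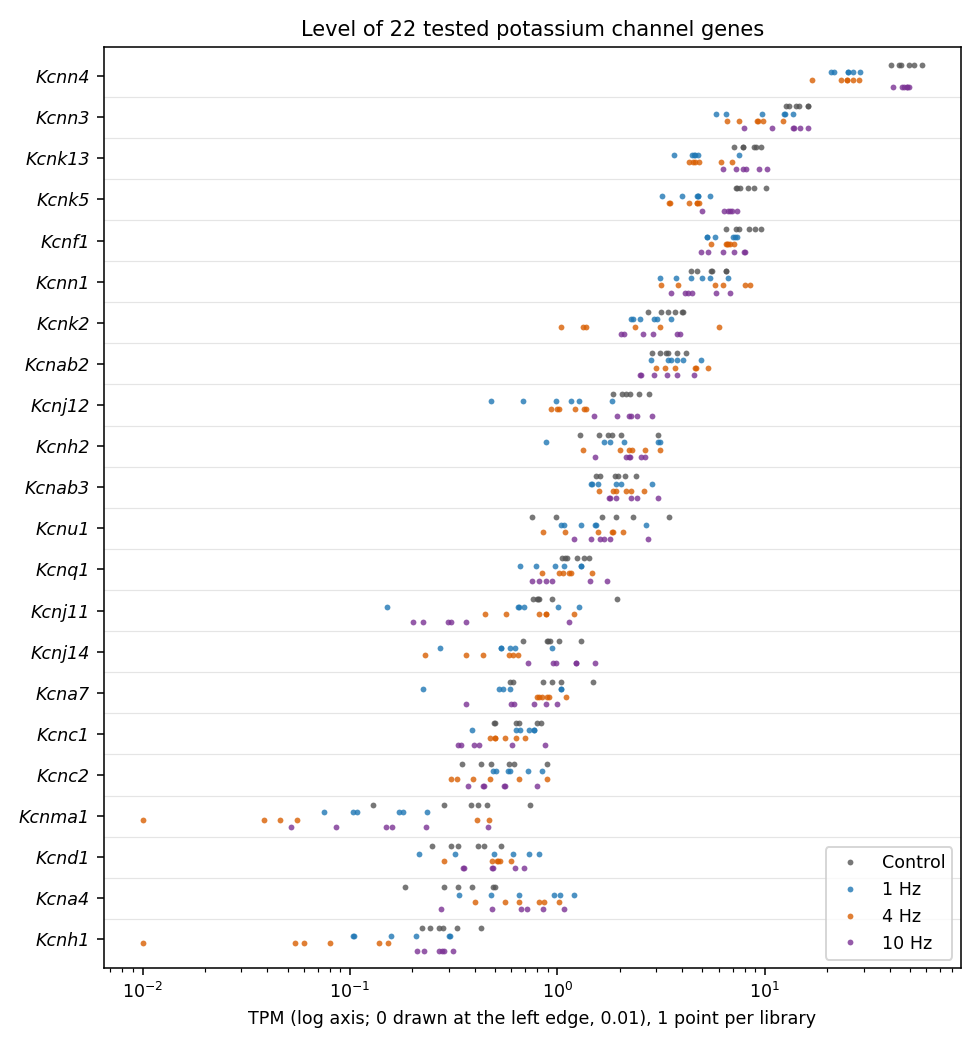
Level of 22 tested genes in TPM on a log axis, 1 point per library, with rows ordered by the mean of the 6 controls and 4 colors for the groups. Kcnn4 lies highest in the controls, near 48.4 TPM, and its 1 and 4 Hz libraries lie to the left of the control and 10 Hz libraries; the 2 points at the left edge are libraries listed at 0.

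The summed level of all 91 genes was 144.0 to 163 TPM in the controls, 80.2 to 125 at 1 Hz, 74.7 to 125 at 4 Hz, and 131 to 156 at 10 Hz. Neither the 1 Hz nor the 4 Hz libraries overlapped the controls, whereas the 10 Hz libraries did. These sums describe the level per library, and the TPM scale itself was lower for most genes in the stimulated groups, with a median log2(fold change) over all genes of -0.14 at 1 Hz and -0.21 at 4 Hz on log2(TPM + 1) against 0.04 and 0.06 on TMM-scaled counts. Kcnn4 alone made up 31.7% ± 3.23 of the sum in the controls (SD, n = 6), and 24.4% ± 2.58, 23.7% ± 2.45, and 32.8% ± 1.40 of it at 1, 4, and 10 Hz. The calcium- and sodium-activated class summed to 70.8 ± 6.66 TPM in the controls, and to 41.7 ± 8.04, 41.2 ± 7.17, and 66.8 ± 4.79 TPM at 1, 4, and 10 Hz. The leak channels summed to 20.9 ± 0.979, 12.7 ± 2.01, 12.3 ± 3.29, and 18.3 ± 2.28 TPM in the same order. The voltage-gated pores summed to 40.4 ± 2.54, 31.7 ± 7.44, 31.1 ± 6.14, and 38.9 ± 3.10 TPM. For the inward rectifiers the sums were 4.90 ± 0.452, 3.16 ± 1.18, 3.525 ± 0.454, and 4.32 ± 0.845 TPM. For the silent subunits they were 8.08 ± 1.17, 6.355 ± 0.983, 6.58 ± 0.542, and 6.72 ± 1.30 TPM. In these classes the means were also lower at 1 and 4 Hz, but libraries overlapped the controls. The accessory subunits stayed within their spread, at 7.46 ± 0.762, 7.23 ± 1.45, 8.03 ± 1.36, and 8.08 ± 2.23 TPM.

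**Figure D2:**
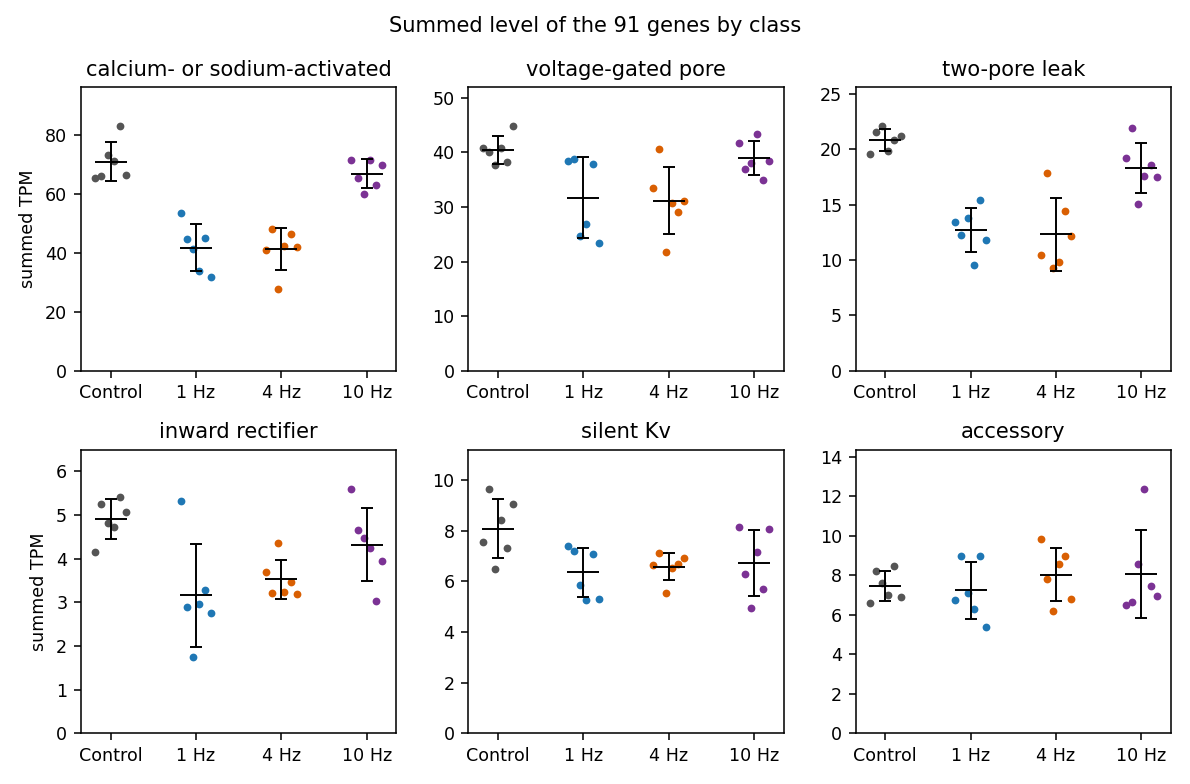
Summed TPM of the 91 genes in 6 classes, 1 point per library, with the mean and SD of 6 libraries in each group and vertical axes that start at 0. The calcium- or sodium-activated class and the leak class of the Kcnk family are lower at 1 and 4 Hz than in the controls. The voltage-gated, inward rectifier, and silent classes also have lower means there, with libraries that overlap the controls. The accessory class overlaps across the groups.

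Further results are given as CPM, the counts of a gene relative to the TMM-scaled library size, on which levels are compared between groups but not between genes. Genes were called changed by edgeR's quasi-likelihood test when the Benjamini-Hochberg adjusted p lay below 0.05 and the log2(fold change) exceeded 0.5 in size. At 1 Hz against the control, 9 of 24 members changed, with 3 higher (Kcna4, Kcnc2, and Kcnd1) and 6 lower (among them Kcnn4, Kcnk5, Kcnk13, Kcnj12, and Kcnh1), beside 14.9% of all genes tested (7.19% higher and 7.74% lower). At 4 Hz, 11 changed, with 4 higher (Kcna4, Kcnc2, Kcnd1, and Kcnab2) and 7 lower (among them Kcnn4, Kcnk5, Kcnj12, Kcnj14, Kcnh1, and Kcnma1), beside 25.1% of all genes (12.8% higher and 12.3% lower). The split at 4 Hz depended on the scaling, being 1 higher and 7 lower with the size factors of DESeq2 (11.6% and 13.2% of all genes) and 0 higher and 6 lower on log2(TPM + 1), where 15 members were tested (2.48% and 23.6% of all genes). At 1 Hz it was 2 higher and 6 lower with the size factors of DESeq2 (6.79% and 8.04% of all genes) and 0 higher and 6 lower on log2(TPM + 1) (1.48% and 12.7%). The changed members made up 37.5% and 45.8% of those tested at 1 and 4 Hz, shares above those of all genes. At 4 Hz the count was 6 (25.0%) without control replicate 3, beside 23.5% of all genes in that fit, and 6 without the 5 libraries of high ribosomal protein share, beside 16.6%. It was 7 (29.2%) without control replicate 4 or 5 or 4 Hz replicate 2 or 4, beside 22.6% to 26.3% of all genes. At an adjusted p below 0.05 with any fold, the members numbered 10 at 1 Hz (37.3% of all genes), 15 at 4 Hz (51.4%), 8 at 10 against 1 Hz (27.9%), and 13 at 10 against 4 Hz (46.3%). Across the members, the median log2(fold change) at 1, 4, and 10 Hz was -0.04, 0.16, and -0.07, whereas over all genes tested it was 0.04, 0.06, and 0.01. In bulk RNA, fewer cells of a type and less RNA per cell cannot be told apart.

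At 10 Hz against the control, 0 of 24 members changed by edgeR, beside 0.0376% of all genes, and 0 of 24 by DESeq2, beside 0.158%. With limma on log2(TPM + 1), 0 of the 15 members tested changed, beside 0.0% of all genes. At an unadjusted p under 0.05, there were 5 members (Kcna4, Kcnc1, Kcnj11, Kcnk5, and Kcnf1), beside 8.07% of all genes. Between 4 and 1 Hz, 0 of 24 members changed by edgeR (0.0% of all genes) and by DESeq2 (0.00751%), and 0 of 15 by limma (0.0%). There the unadjusted p was under 0.05 for 2 members (Kcnh1 and Kcnab3), beside 11.0% of all genes, and the adjusted p was 0.367 for Kcnh1 and 0.422 for Kcnab3. The difference between frequencies was tested directly. At 10 Hz against 1 Hz, 7 members changed, 5 higher and 2 lower (10.8% of all genes, 5.85% higher and 4.99% lower), and at 10 Hz against 4 Hz, 9 changed, 5 higher and 4 lower (21.2% of all genes, 10.6% in each direction). These comparisons share libraries with each other and are given side by side.

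Library ranges gave a count without a model. All 6 libraries at 1 Hz lay below all controls for 4 members (among them Kcnn4, Kcnk5, and Kcnj12), beside 8.58% of all genes, while 0 members lay above them (5.55%) and 14.1% of all genes were apart in either direction. At 4 Hz, 6 members lay below all controls (the same 4 with Kcnn3 and Kcnh1) and 1 above (Kcna4), beside 14.7% and 12.9% of all genes (27.6% together). At 10 Hz, 0 members were apart from the controls (1.64% of all genes). Between 10 and 1 Hz, 2 members lay higher without overlap (Kcnn4 among them, beside 5.03% of all genes) and 0 lower (2.67%; 7.7% together). Between 10 and 4 Hz, 4 members lay higher (among them Kcnn4, Kcnj12, and Kcnh1) and 3 lower (Kcnj11, Kcnc1, and Kcna7) without overlap, beside 10.8% and 8.1% of all genes (18.9% together). Kcna7, a delayed rectifier of muscle, is named for this count after its values were seen, and its adjusted p was 0.0856.

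**Figure D3:**
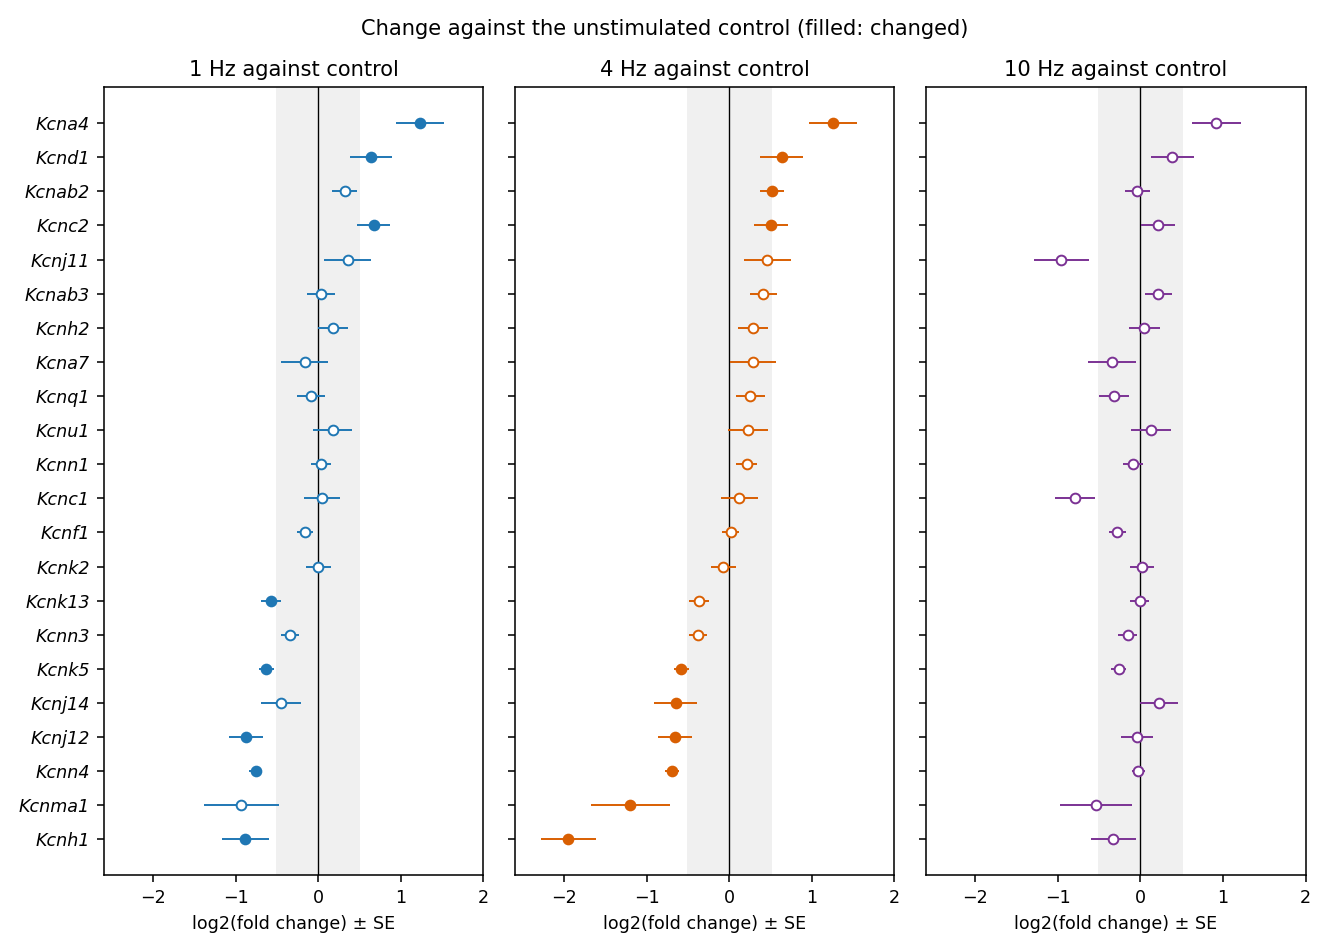
Log2(fold change) with its SE for 22 tested genes against the control at 1, 4, and 10 Hz, where filled points are members called changed and the grey band marks a size of 0.5 or less. At 1 and 4 Hz the filled points lie on both sides of 0, with Kcnh1 lowest at 4 Hz (-1.95) and Kcna4 highest (1.26), and at 10 Hz no point is filled.

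The bases upstream of the annotated start are shown for 5 members that moved with stimulation. These kept their call at 1 Hz in every alternative in which they were tested. Kcnn4, Kcnk5, Kcnk13, and Kcnj12 were lower and Kcna4 was higher there. Each run holds the 250 bases before the start, 5′ to 3′ on the strand of the gene, from RefSeq on GRCm38.p6, with E-boxes (CANNTG, the same on both strands) in capitals.
Kcnn4, chr7:24370013-24370262, plus strand: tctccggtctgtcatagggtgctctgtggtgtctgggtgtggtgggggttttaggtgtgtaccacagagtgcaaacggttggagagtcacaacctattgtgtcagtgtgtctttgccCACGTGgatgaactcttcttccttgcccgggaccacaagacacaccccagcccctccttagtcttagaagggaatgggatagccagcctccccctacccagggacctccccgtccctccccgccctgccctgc
Kcnk5, chr14:20181783-20182032, minus strand: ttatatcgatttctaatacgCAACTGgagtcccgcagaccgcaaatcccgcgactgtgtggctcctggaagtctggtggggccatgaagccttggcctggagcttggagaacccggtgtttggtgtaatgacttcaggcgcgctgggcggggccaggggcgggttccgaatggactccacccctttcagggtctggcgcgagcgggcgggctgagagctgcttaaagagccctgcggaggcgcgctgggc
Kcnk13, chr12:99964249-99964498, plus strand: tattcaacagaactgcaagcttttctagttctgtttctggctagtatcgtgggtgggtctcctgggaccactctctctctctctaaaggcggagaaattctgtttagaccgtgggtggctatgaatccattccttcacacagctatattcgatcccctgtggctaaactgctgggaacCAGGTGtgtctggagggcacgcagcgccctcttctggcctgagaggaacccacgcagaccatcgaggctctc
Kcnj12, chr11:61065554-61065803, plus strand: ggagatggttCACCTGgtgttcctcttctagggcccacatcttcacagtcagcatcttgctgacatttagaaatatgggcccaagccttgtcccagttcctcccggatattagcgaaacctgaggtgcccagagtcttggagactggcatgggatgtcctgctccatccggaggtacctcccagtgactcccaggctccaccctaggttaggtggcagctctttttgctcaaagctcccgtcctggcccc
Kcna4, chr2:107290339-107290588, plus strand: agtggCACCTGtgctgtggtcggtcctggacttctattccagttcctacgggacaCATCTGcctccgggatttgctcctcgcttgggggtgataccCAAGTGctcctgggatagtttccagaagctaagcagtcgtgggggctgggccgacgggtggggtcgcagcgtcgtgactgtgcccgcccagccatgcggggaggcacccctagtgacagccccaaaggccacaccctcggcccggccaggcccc
The windows of Kcnn4, Kcnk5, Kcnk13, and Kcnj12 hold 1 E-box each, and that of Kcna4 holds 3. Kcnc2 also kept its call at 1 Hz and is not printed because the table gives it 4 starts, whose windows hold 1 to 3 E-boxes. An E-box was found in 65.9% of 91 such windows over the 66 members with an entry, beside 66.2% of 32851 windows over all genes. The AP-1 site (TGANTCA, both strands) was in 4.4% of the members' windows and 6.7% of all, and in none of the 5 printed. The cAMP response element (TGACGTCA, both strands) was in 0 of the members' windows and 1.5% of all. These matches describe letters in a window and nothing about binding.

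Kcnn4, the intermediate-conductance channel opened by calcium through calmodulin, was lower at 1 and 4 Hz and at its control level at 10 Hz. Its level was 48.1, 55.9, and 65.8 CPM (lowest, median, and highest of 6 libraries) in the controls. It was 29.7, 34.9, and 35.8 CPM at 1 Hz and 29.8, 36.2, and 38.6 CPM at 4 Hz. At 10 Hz it was 53.5, 55.4, and 62.1 CPM. The 12 libraries at 1 and 4 Hz lay below all 12 control and 10 Hz libraries. The log2(fold change) was -0.76 ± 0.08 (SE) at 1 Hz and -0.69 ± 0.08 at 4 Hz (adjusted p = 1.2e-07 and 2.12e-07). At 10 Hz the adjusted p was 0.987 against the control, and the level was higher than at 1 Hz by 0.74 ± 0.08 and than at 4 Hz by 0.67 ± 0.08 on the log2 scale (adjusted p = 3.72e-07 and 6.45e-07). Kcnn4 lies on chromosome 7 (24066915 to 24086115, plus strand, GRCm39), and no exon of another gene overlaps its exons on the other strand.

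Kcnn3, a small-conductance channel of the same family that in muscle is known from developing and denervated fibers, was lower at 1 and 4 Hz by less than the fold threshold. Its level was 45.3, 49.4, and 54.1 CPM (lowest, median, highest) in the controls, 30.1, 39.1, and 48.5 CPM at 1 Hz, and 33.5, 37.1, and 43.8 CPM at 4 Hz. All 4 Hz libraries were below all controls and 4 of the 6 at 1 Hz were. The log2(fold change) was -0.34 ± 0.11 at 1 Hz and -0.38 ± 0.11 at 4 Hz, with adjusted p of 0.0159 and 0.00578. The 10 Hz libraries lay at 32.6, 45.7, and 51.3 CPM and did not pass against the control, 1 Hz, or 4 Hz (adjusted p of 0.80, 0.204, and 0.0991). On log2(TPM + 1) it passed both, at -0.53 and -0.63. Kcnn1, the other small-conductance channel that was tested, held 8.42 ± 0.828 CPM in the controls and 8.55 ± 1.70, 9.73 ± 1.17, and 7.93 ± 1.17 CPM at 1, 4, and 10 Hz (SD, n = 6), and passed no threshold against the control. Of its exon bases, 19.2% overlap a gene on the other strand.

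Kcnma1, the large-conductance channel opened by calcium and voltage, was near the limit of detection. Its counts per library were 11 to 29 in the controls, 3 to 15 at 1 Hz, 0 to 10 at 4 Hz, and 1 to 21 at 10 Hz. Expressed as CPM, the controls lay at 0.992, 1.23, and 2.58 (lowest, median, highest) and the 4 Hz libraries at 0.0, 0.466, and 1.17, and 4 of the 6 at 4 Hz lay below all controls. It fell by 1.20 ± 0.48 on the log2 scale at 4 Hz (adjusted p = 0.038), and this call was lost when any of 6 libraries was left out. Without control replicate 3, which is the highest, the change was -0.98 (adjusted p = 0.104), and without the 5 libraries of high ribosomal protein share it was -1.07 (adjusted p = 0.132). At 1 Hz the log2(fold change) was -0.93 ± 0.45 (adjusted p = 0.104). Of its exon bases, 6.26% overlap a gene on the other strand.

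Among the leak channels, Kcnk5, an alkaline-activated channel that swelling also opens, was lower at 1 and 4 Hz. Its level was 15.3, 16.7, and 18.9 CPM (lowest, median, highest) in the controls. It was 9.64, 11.2, and 12.03 CPM at 1 Hz and 9.55, 11.7, and 12.1 CPM at 4 Hz, with no library in the range of the controls. The log2(fold change) was -0.63 ± 0.09 at 1 Hz and -0.58 ± 0.09 at 4 Hz (adjusted p = 8.43e-06 and 1.18e-05). The 10 Hz libraries lay between, at 11.6, 14.1, and 15.6 CPM, and 4 of the 6 were below all controls. Against the control they did not pass (log2(fold change) -0.265 ± 0.089, adjusted p = 0.37). They were above 1 Hz by 0.36 ± 0.09 and above 4 Hz by 0.32 ± 0.09 on the log2 scale, with adjusted p of 0.00487 and 0.00727, short of the fold threshold. On log2(TPM + 1) the values were 0.46 and 0.52, the second past the threshold, and on log2(TPM + 0.1) both passed (0.54 and 0.61).

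Kcnk13, a leak channel inhibited by halothane, was lower at 1 Hz. Its level was 14.1, 16.3, and 17.5 CPM (lowest, median, highest) in the controls and 9.48, 9.84, and 14.1 CPM at 1 Hz, where 5 of the 6 libraries lay below all controls. The 4 Hz libraries were at 10.7, 12.3, and 14.6 CPM and the 10 Hz libraries at 11.5, 16.4, and 19.6 CPM. It fell by 0.57 ± 0.12 on the log2 scale at 1 Hz (adjusted p = 0.000745). At 4 Hz the log2(fold change) was -0.36 ± 0.12 (adjusted p = 0.0149), under the fold threshold, and on log2(TPM + 1) it was -0.60 and past it. The 10 Hz level exceeded that at 1 Hz by 0.56 ± 0.12 (adjusted p = 0.00158), which became 0.495, under the fold threshold, without 10 Hz replicate 2. The mechanosensitive leak channel Kcnk2 held 4.28 ± 0.447 CPM in the controls and 4.29 ± 0.805, 4.05 ± 0.90, and 4.31 ± 0.681 CPM at 1, 4, and 10 Hz, and no comparison passed a threshold (adjusted p of 0.642 to 0.998). Of the exon bases of Kcnk2, 14.6% overlap genes on the other strand.

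**Figure D4:**
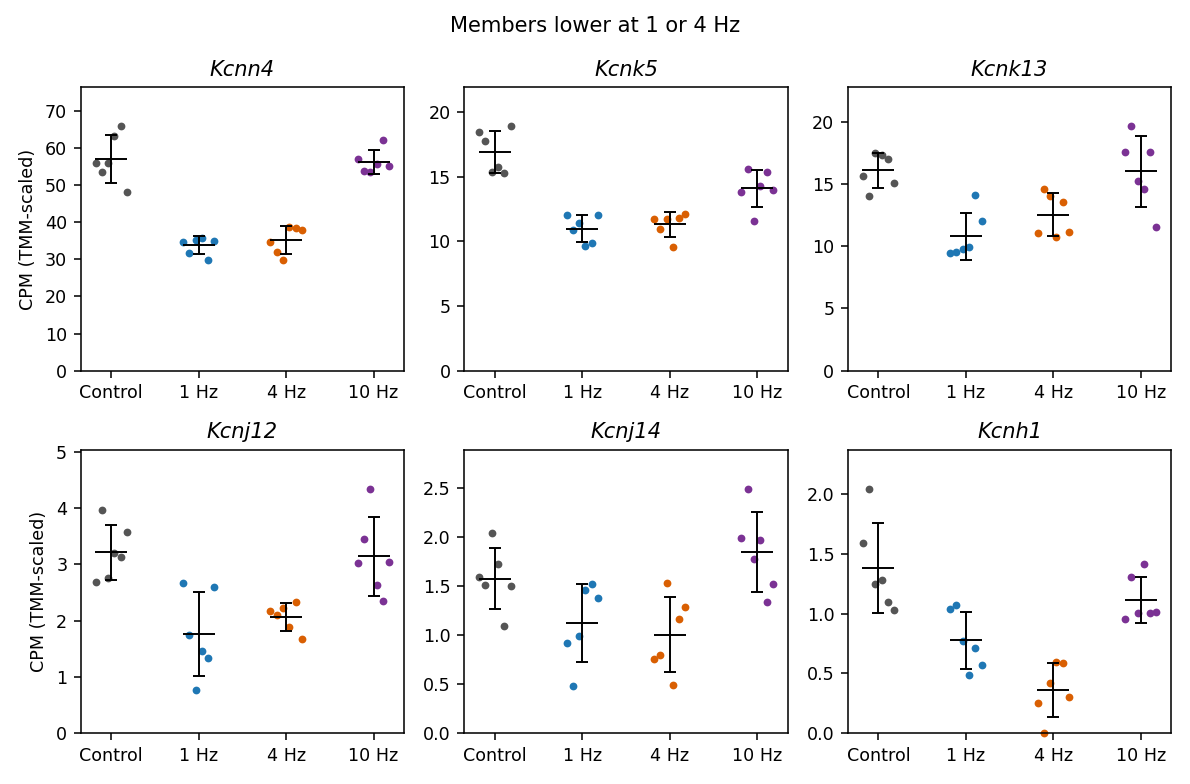
CPM of 6 members that were lower at 1 or 4 Hz, 1 point per library, with the mean and SD of each group of 6 and vertical axes that start at 0. For Kcnn4 the 1 and 4 Hz libraries lie below all control and 10 Hz libraries, while for Kcnk13 the groups overlap.

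Kcnh1, the ether-à-go-go channel known from the onset of human myoblast fusion, had the largest log2(fold change) among the members and few reads. It summed to 112 counts over the 6 controls and to 50, 20, and 68 counts at 1, 4, and 10 Hz. Expressed as CPM, it was at 1.03, 1.26, and 2.04 (lowest, median, highest) in the controls, 0.488, 0.745, and 1.07 at 1 Hz, 0.0, 0.361, and 0.597 at 4 Hz, and 0.956, 1.01, and 1.41 at 10 Hz. All 4 Hz libraries lay below all control and all 10 Hz libraries, and the 1 Hz libraries overlapped the controls. It fell by 1.95 ± 0.33 on the log2 scale at 4 Hz (adjusted p = 3.72e-05), with a range of -2.20 to -1.68 when each library was left out in turn. The 10 Hz level was higher than that at 4 Hz by 1.62 ± 0.35 (adjusted p = 0.000706). At 1 Hz it fell by 0.89 ± 0.28 (adjusted p = 0.0165). This call was lost without control replicate 2 (-0.74, adjusted p = 0.0515) and without the 5 libraries of high ribosomal protein share (-0.64, adjusted p = 0.119). The level at 4 Hz against 1 Hz did not pass (adjusted p = 0.367).

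Kcna4, a fast-inactivating A-type channel, was the member that moved most in the other direction. Its level was 0.533, 1.13, and 1.59 CPM (lowest, median, highest) in the controls, 1.43, 3.08, and 3.81 CPM at 1 Hz, 1.95, 2.74, and 3.62 CPM at 4 Hz, and 0.832, 2.17, and 3.20 CPM at 10 Hz. All 4 Hz libraries were above all controls, as were 4 libraries at 1 Hz and 5 at 10 Hz. These CPM rest on 6 to 19 counts per library in the controls and 7 to 35 in the stimulated groups. The log2(fold change) was 1.23 ± 0.29 at 1 Hz and 1.26 ± 0.29 at 4 Hz (adjusted p = 0.00176 and 0.00098). At 10 Hz it was 0.92 ± 0.30 with an adjusted p of 0.334, and the level at 10 Hz did not pass against 1 Hz (adjusted p = 0.404) or 4 Hz (adjusted p = 0.328). For Kcna4 a difference between the stimulated groups was therefore not shown.

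Kcnc2, a fast delayed rectifier, was at 1.07, 1.25, and 1.63 CPM (lowest, median, highest) in the controls, 1.56, 2.05, and 2.65 CPM at 1 Hz, and 1.29, 1.65, and 3.05 CPM at 4 Hz. It was higher at 1 Hz by 0.67 ± 0.20 on the log2 scale (adjusted p = 0.01). At 4 Hz the 0.51 ± 0.21 (adjusted p = 0.0419) was lost when any of 15 libraries was left out and without the 5 libraries of high ribosomal protein share (0.39, adjusted p = 0.218). In TPM the mean of Kcnc2 was 0.559 in the controls, 0.622 at 1 Hz, and 0.507 at 4 Hz, so at 4 Hz the direction differs between the scales. Kcnd1, an A-type channel, was at 0.80, 1.25, and 1.87 CPM (lowest, median, highest) in the controls, 0.715, 2.31, and 2.89 CPM at 1 Hz, and 1.53, 2.13, and 2.34 CPM at 4 Hz. Its log2(fold change) of 0.64 ± 0.26 at 1 Hz (adjusted p = 0.0495) was lost when any of 19 libraries was left out, and that of 0.63 ± 0.26 at 4 Hz (adjusted p = 0.0434) with any of 15. Neither passed without the 5 libraries of high ribosomal protein share (adjusted p of 0.0914 and 0.145). Both genes overlap an exon on the other strand, over 9.44% of the exon bases of Kcnc2 and 1.53% of those of Kcnd1.

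Kcnc1, a fast delayed rectifier of repetitively firing cells, was set apart by 10 Hz. Its level was 2.45, 3.23, and 4.20 CPM (lowest, median, highest) in the controls, 1.55, 3.30, and 5.43 CPM at 1 Hz, 2.92, 3.19, and 5.01 CPM at 4 Hz, and 1.12, 1.79, and 2.79 CPM at 10 Hz. All 10 Hz libraries were below all 4 Hz libraries, and 5 of the 6 were below all controls. It was lower at 10 Hz than at 4 Hz by a log2(fold change) of -0.91 ± 0.24 (adjusted p = 0.00381). Against 1 Hz the value was -0.84 ± 0.24 (adjusted p = 0.0118), and this call did not hold without 1 Hz replicate 4 (-0.60, adjusted p = 0.0686) and without the 5 libraries of high ribosomal protein share (-0.66, adjusted p = 0.062). In TPM, where Kcnc1 lay under the filter on low values, the 4 Hz (0.475 to 0.698) and 10 Hz (0.333 to 0.870) libraries overlapped. Against the control the log2(fold change) of -0.79 ± 0.24 did not pass over all genes (adjusted p = 0.247), although it had the smallest p of the members at 10 Hz.

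Of the other voltage-gated members, Kcnq1, a slow delayed rectifier known from heart and epithelia, was lower at 10 Hz than at 4 Hz by a log2(fold change) of -0.57 ± 0.18 (adjusted p = 0.0117), with libraries at 1.32, 1.80, and 2.38 CPM against 2.04, 2.50, and 3.48 CPM. This was -0.029 on log2(TPM + 1), and it was under the fold threshold without 4 Hz replicate 3, 4 Hz replicate 6, or 10 Hz replicate 4 (-0.475 to -0.488). It did not pass without the 5 libraries of high ribosomal protein share (-0.53, adjusted p = 0.0692). Of the exon bases of Kcnq1, 23.6% overlap genes on the other strand, Kcnq1ot1 among them. The library kit keeps the strand, but whether the counting used it is not given in the sources used here. Kcnh2, a rapid delayed rectifier of the heart, had means of 4.36 to 5.34 CPM, and the silent subunit Kcnf1, which forms no channel alone and modifies others, had means of 20.4 to 25.1 CPM. Kcnf1 at 10 Hz lay below all 4 Hz libraries in 5 of 6 libraries (adjusted p = 0.0213), under the fold threshold. All 4 Hz libraries of Kcnf1 lay above all 1 Hz libraries (1 member of 24, beside 0.376% of all genes), with an adjusted p of 0.517.

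**Figure D5:**
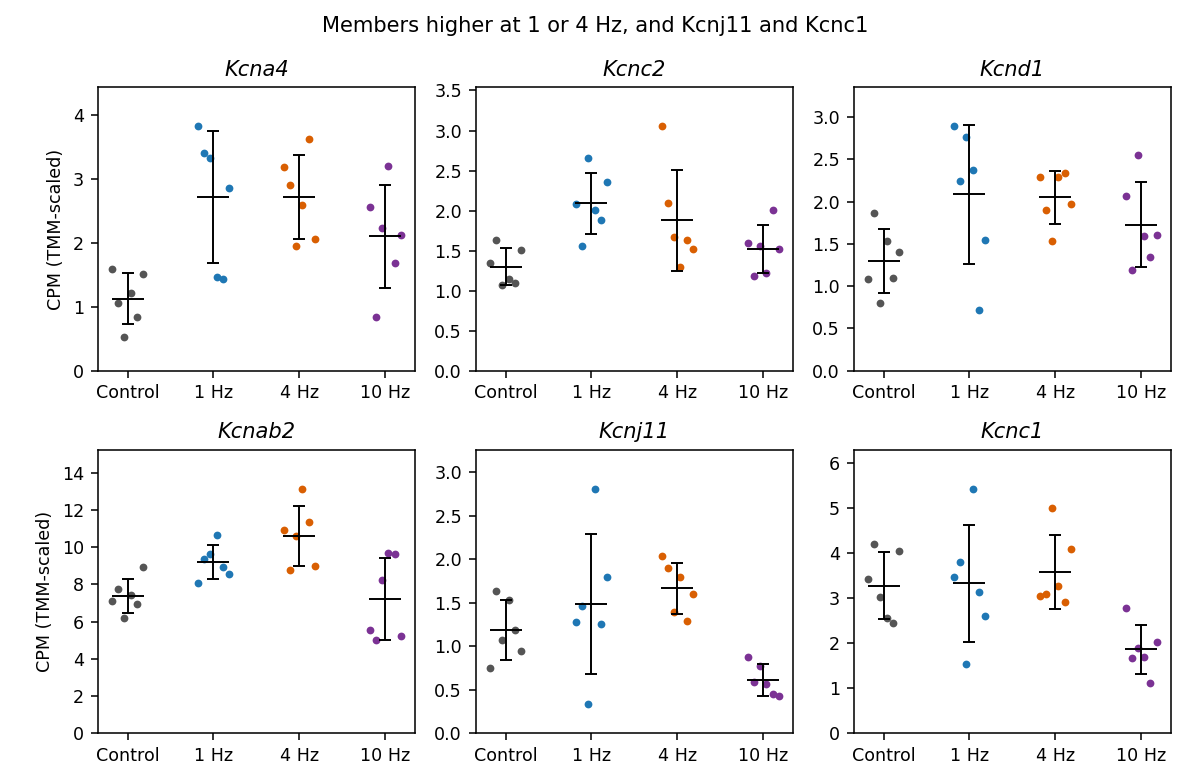
CPM of 4 members that were higher at 1 or 4 Hz and of Kcnj11 and Kcnc1, 1 point per library, with the mean and SD of each group of 6 and vertical axes that start at 0. Kcna4 lies above all controls in all 4 Hz libraries, and Kcnj11 and Kcnc1 at 10 Hz lie below all 4 Hz libraries.

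Of 14 inward rectifiers, 3 were tested. Kcnj12, a strong rectifier that helps hold the resting potential of muscle, was at 2.68, 3.16, and 3.97 CPM (lowest, median, highest) in the controls. It was at 0.774, 1.61, and 2.66 CPM at 1 Hz, at 1.67, 2.13, and 2.33 CPM at 4 Hz, and at 2.35, 3.04, and 4.34 CPM at 10 Hz. No library at 1 or 4 Hz reached the range of the controls. It fell by 0.87 ± 0.20 on the log2 scale at 1 Hz (adjusted p = 0.00179) and by 0.66 ± 0.21 at 4 Hz (adjusted p = 0.00993). The 10 Hz level was higher than that at 1 Hz by 0.82 ± 0.21 (adjusted p = 0.00497) and than at 4 Hz by 0.61 ± 0.21 (adjusted p = 0.0199), the second of which did not hold without 10 Hz replicate 3 (0.50, adjusted p = 0.055) and without the 5 libraries of high ribosomal protein share (0.66, adjusted p = 0.0575).

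Kcnj14, a strong rectifier known from motor neurons, had 1.10, 1.55, and 2.04 CPM (lowest, median, highest) in the controls, 0.487, 1.19, and 1.52 CPM at 1 Hz, 0.497, 0.983, and 1.53 CPM at 4 Hz, and 1.34, 1.88, and 2.50 CPM at 10 Hz. The groups overlapped in each comparison. It fell by 0.65 ± 0.26 on the log2 scale at 4 Hz (adjusted p = 0.0364), which was lost when any of 5 libraries was left out and without the 5 libraries of high ribosomal protein share (-0.55, adjusted p = 0.144), and the log2(fold change) at 1 Hz was -0.45 ± 0.24 (adjusted p = 0.149). The 10 Hz level was higher than that at 4 Hz by 0.87 ± 0.26 (adjusted p = 0.00782), which without the 5 libraries of high ribosomal protein share was 0.77 (adjusted p = 0.0539). Against 1 Hz it was higher by 0.67 ± 0.25 (adjusted p = 0.0432), which was lost when any of 7 libraries was left out.

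Kcnj11 encodes the pore of the ATP-sensitive channel of muscle and of the pancreatic beta cell. Its level was 0.755, 1.12, and 1.63 CPM (lowest, median, highest) in the controls, 0.332, 1.37, and 2.81 CPM at 1 Hz, 1.28, 1.69, and 2.04 CPM at 4 Hz, and 0.423, 0.579, and 0.876 CPM at 10 Hz. All 10 Hz libraries lay below all 4 Hz libraries. The counts behind them were 4 to 11 per library at 10 Hz and 10 to 21 at 4 Hz. It was lower at 10 Hz than at 4 Hz (log2(fold change) -1.42 ± 0.33, adjusted p = 0.00118). Against 1 Hz the value was -1.31 ± 0.32 (adjusted p = 0.0039), and -0.81 (adjusted p = 0.0947) without the 5 libraries of high ribosomal protein share. Against the control it was -0.96 ± 0.33 (adjusted p = 0.393), which did not pass. In TPM the means were 0.80 at 4 Hz and 0.421 at 10 Hz, in the same direction, and the libraries overlapped there because 1 at 10 Hz reached 1.14 TPM.

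The regulatory sulfonylurea receptors that complete the ATP-sensitive channel are Abcc8 and Abcc9. Abcc8, named here for its place rather than by the rule for partner genes, lies beside Kcnj11 on chromosome 7, with 3758 bases between the genes on the same strand (45743377 to 45750188 for Kcnj11 and 45753947 to 45829473 for Abcc8, GRCm39). It was at 1.13, 1.43, and 1.69 CPM (lowest, median, highest) in the controls, 1.39, 1.81, and 2.22 CPM at 4 Hz, and 0.254, 1.15, and 1.44 CPM at 10 Hz. Its log2(fold change) at 10 Hz against 4 Hz was -0.79 ± 0.27 (adjusted p = 0.0186), but 0.14 on log2(TPM + 1), and without 10 Hz replicate 6 it was -0.55 (adjusted p = 0.0539). In TPM its median was lower at 10 Hz than at 4 Hz (0.693 against 0.826) but its mean was higher (1.17 ± 1.03 against 0.815 ± 0.225), with 1 library at 10 Hz reaching 2.85 TPM. Abcc9, the receptor of the muscle form, ranged from 1.98 to 3.48 CPM in the controls and from 1.19 to 2.40 CPM at 4 Hz. It fell by 0.54 ± 0.23 on the log2 scale there (adjusted p = 0.0495), and this call was lost when any of 13 libraries was left out and without the 5 libraries of high ribosomal protein share (-0.43, adjusted p = 0.232). At 10 Hz against 4 Hz its adjusted p was 0.956.

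Of 15 accessory subunits, Kcnab2 and Kcnab3, cytoplasmic beta subunits of the Kcna channels, were tested. Kcnab2 was at 6.22, 7.27, and 8.92 CPM (lowest, median, highest) in the controls, 8.79, 10.8, and 13.1 CPM at 4 Hz, and 4.99, 6.90, and 9.69 CPM at 10 Hz. It was higher at 4 Hz than in the control by 0.52 ± 0.15 (adjusted p = 0.00508), close to the fold threshold, and this call was lost when any of 14 libraries was left out. It was lower at 10 Hz than at 4 Hz by a log2(fold change) of -0.56 ± 0.15 (adjusted p = 0.00413), which was under the fold threshold without 4 Hz replicate 4 or 10 Hz replicate 1, 2, or 6 (nearest to 0 at -0.456). Both calls were also lost without the 5 libraries of high ribosomal protein share (0.35 and -0.40, adjusted p = 0.123 and 0.0975). On log2(TPM + 1) the values were 0.18 and -0.25, with adjusted p of 0.303 and 0.159. Of its exon bases, 7.45% overlap genes on the other strand. The controls held 2.94 ± 0.535 CPM of Kcnab3, the only other accessory subunit tested, and the 4 Hz libraries 3.97 ± 0.828 CPM (higher by 0.41 ± 0.16 on the log2 scale, adjusted p = 0.0389), under the fold threshold. Of the exon bases of Kcnab3, 15.99% overlap genes on the other strand. The Kcne, Kcnip, and Kcnmb subunits did not pass the filter on low counts.

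The partner genes are 30 genes outside the family. Their proteins assemble with potassium channels, anchor, modify, or repress them, or carry potassium in internal membranes, and 22 of the genes were tested. At 1 Hz 2 of the 22 changed (9.09%, beside 14.9% of all genes) and at 4 Hz 3 (13.6%, beside 25.1%), all of them lower. With no threshold on fold, 5 (22.7%, beside 37.3% of all genes) passed at 1 Hz and 13 (59.1%, beside 51.4%) at 4 Hz, of which 6 were higher and 7 lower. At 10 Hz 0 changed by edgeR and DESeq2, and 2 (9.09%) had an unadjusted p under 0.05, beside 8.07% of all genes. Ccdc51, the pore subunit of the mitochondrial ATP-sensitive channel, was at 6.53, 8.47, and 10.2 CPM (lowest, median, highest) in the controls, 3.10, 4.34, and 5.72 CPM at 1 Hz, 2.64, 4.09, and 4.89 CPM at 4 Hz, and 5.58, 7.28, and 8.13 CPM at 10 Hz. No library at 1 or 4 Hz reached the controls. It fell by 0.90 ± 0.15 on the log2 scale at 1 Hz (adjusted p = 4.75e-05) and by 1.04 ± 0.15 at 4 Hz (adjusted p = 5.83e-06).

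Over the 6 comparisons there were 36 calls of members, and 21 of them were kept in every alternative in which the member was tested and when each library was left out. Kcnn4 kept all 4 of its calls. Those of Kcnk5 and Kcna4 at 1 and 4 Hz, Kcnj12 at 1 and 4 Hz and at 10 against 1 Hz, Kcnh1 at 4 Hz and at 10 against 4 Hz, Kcnk13 and Kcnc2 at 1 Hz, and Kcnj11 and Kcnc1 at 10 against 4 Hz were also kept.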

How the data were processed

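RNA of 24 libraries (6 per group, labelled as separate replicates) was selected for poly(A). Low-input samples were ribodepleted instead, and which ones these were is not given in the sources used here. The deposited estimated counts are salmon's values per gene, from the nf-core/rnaseq pipeline with the Ensembl annotation of GRCm39 and not normalized (6.15% of them not whole). The deposited TPM values are the authors' length-scaled levels. The study's methods also name a mapping by BWA-MEM and quality metrics from bedtools, for which the submitters' processing notes list BWA 0.7.12-r1039 and bedtools 2.25.0, a bedtools version other than that in the methods. The role of STAR, which the notes name, is not given. The library kit keeps the strand of the RNA, but the strand setting of the counting is not given in the sources used here.

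Estimated counts were rounded and fitted for all genes with edgeR 4.0.16 in R 4.3.3: filterByExpr (minimum count 10, minimum total 15), TMM scaling, 1 mean per group, and the robust quasi-likelihood F test. P-values were adjusted by Benjamini-Hochberg over the 13315 genes tested. SE is the size of the log2(fold change) divided by the square root of F. The biological coefficient of variation was 14.8%, which with 6 libraries per group limits the smallest change that can be seen. Alternatives used DESeq2 1.42.0, limma 3.58.1 on log2(TPM + 1) or log2(TPM + 0.1) (genes reaching 1 TPM in at least 6 libraries), other scalings, other filters (none, or 50 counts in 6 libraries), fits of only the 2 groups compared, a replicate block, and each library left out. Leaving out the 5 libraries with over 7% ribosomal protein counts was chosen after seeing the data. Scripts were tested on simulated data.

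The members, lists, and tests were chosen with earlier results of these data known. Named members are those changed in any comparison, the 12 highest by TPM in the controls, and the member with the lowest p for each sign and frequency. Partner genes are named where changed against the control. Some genes that meet these rules are not reported here, while the counts and sums over members and partners include all that were tested. Positions come from GENCODE M39, and upstream sequences from RefSeq on GRCm38.p6 (66 of 91 members matched).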

Additional observations from a re-analysis of the deposited data

Results flagged for a closer look

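Among 84 groups of 6 libraries, taken over the 21 named members, 2 held a library far from the other 5 (by the critical value of Dixon's test for 6 values), where chance alone gives about 1 in 20. Kcnma1 was highest in control replicate 3, at 2.58 CPM (29 counts), with the other controls at 0.992 to 1.44 CPM. Its decrease at 4 Hz was lost without that library (-0.98, adjusted p = 0.104). Kcnn3 was lowest in 10 Hz replicate 5, at 32.6 CPM (292 counts), with the other 10 Hz libraries at 44.7 to 51.3 CPM. What set either library apart was not tested.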

How the results depend on the processing

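No member changed at 10 Hz against the control or between 4 and 1 Hz under any alternative run. Counts of changed members were 9 at 1 Hz and 11 at 4 Hz against the control, 7 at 10 against 1 Hz, and 9 at 10 against 4 Hz. With the strict filter, which kept 11 members, they were 4, 4, 3, and 3 (14.3%, 24.1%, 10.6%, and 20.4% of all genes), since fewer members were tested. At 4 Hz the count was 6 without a filter (3351 of 27811 genes), 6 on both TPM scales (15 members tested; 26.1% and 28.9%), and 6 without the 5 libraries of high ribosomal protein share (16.6%). At 10 against 1 Hz it was 4 on log2(TPM + 1) (10.2%). At 10 against 4 Hz it was 5 on both TPM scales (23.1% and 25.8%) and 5 without those 5 libraries (12.6%). Leaving out each library gave 8 to 10, 6 to 11, 5 to 7, and 8 to 9, beside 12.3% to 18.2%, 22.6% to 27.3%, 7.65% to 13.9%, and 18.2% to 23.9% of all genes. At 4 Hz it fell furthest without control replicates 3, 4, or 5 or 4 Hz replicates 2 or 4. Partner genes without a threshold on fold change were 5 at 1 Hz (37.3% of all genes) and 13 at 4 Hz (51.4%), and with the threshold 5 at 4 Hz on both TPM scales (26.1% and 28.9%). Among the named changes fitted under each alternative, the sign turned for Abcc8 at 10 against 4 Hz, at 0.14 on log2(TPM + 1) and 0.078 on log2(TPM + 0.1). The causes were not tested unless stated. The replicate numbers did not pair the libraries (36 same-number pairs, median correlation of deviations -0.02, range -0.33 to 0.24, 0 libraries closest to their own number). With the replicate block, the counts of changed members were 8, 9, 0, 0, 6, and 9 for 1, 4, and 10 Hz against the control, 4 against 1 Hz, 10 against 1 Hz, and 10 against 4 Hz (14.3%, 24.7%, 0.0225%, 0.00751%, 9.95%, and 20.7% of all genes), and those of partner genes were 2, 3, and 0. Members with few counts per library (Kcna4, Kcnh1, Kcnj11, Kcnma1, Kcnd1, Kcnc2, and Kcnj14) are limited by depth.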
